A study of Mus musculus with 9 samples.

Results

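The 10 genes described here encode enzymes that make serine and asparagine and that carry one-carbon units on folate. Phgdh, Psat1 and Psph catalyse the steps of serine synthesis, Shmt1 and Shmt2 exchange serine and glycine in the cytosol and the mitochondria, Mthfd1 is the cytosolic folate enzyme, Mthfd1l, Mthfd2 and Aldh1l2 are mitochondrial folate enzymes, and Asns makes asparagine. They were chosen with earlier results of these data known. A probe set is the group of short oligonucleotides that reads a transcript on the array. Each was taken by name, where its annotated symbol was that of 1 of these genes. This gave 24 of 45037 probe sets and 10 of the 18193 genes on the array. A further 2 probe sets that carry Phgdh together with a predicted gene (Gm6756 or Gm8096) were not used for the gene counts.

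RNA was taken from adult olfactory bulb stem cells (aOBSCs) grown for 7 days as floating neurospheres, and was measured on Affymetrix mouse arrays, 3 for each condition and 9 in all. FGF-2 and EGF, the mitogens that keep these cells dividing, were each added at 20 ng/ml every day (Ctr, n = 3), every 2 days (C2, n = 3) or every 4 days (C4, n = 3). The comparison asks how the expression of the cells changes as the growth factors are added less often. Values are on the log2 scale, so a difference of 1 is a doubling or a halving.

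All 3 conditions shared the same cells and basal medium, and no genetic change or further agent is named for any of them. By the methods, cultures were prepared from the strains CD1 and C57Bl/6, and the expression data came from mice of 7 and 15 months. Which array came from which strain, age or animal is not stated. The cells had been kept with daily factors for 3 passages and then for 2 passages in their own regimen. The C2 cultures had gone 1 day and the C4 cultures 3 days without addition when the RNA was taken, so the interval between additions and the time since the last one cannot be told apart. A legend that covers both the arrays and RT-qPCR gives means of 3 experiments, without saying whether each array was 1 of them. If the arrays of a condition were not separate cultures, the p-values measure a spread that may be technical.

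Serine is built in the cytosol from a glycolytic intermediate by 3 enzymes acting in turn. SHMT enzymes then pass a carbon of serine to tetrahydrofolate, leaving glycine, and in mitochondria MTHFD2 and MTHFD1L carry that unit on to formate, which returns to the cytosol for the synthesis of purines and thymidylate. Asparagine synthetase moves an amide group from glutamine to aspartate. In mammalian cells several genes of these pathways are known targets of ATF4, a transcription factor whose translation increases when amino acids are scarce or the endoplasmic reticulum is stressed.

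Over all probe sets tested, arrays of a condition correlated at 0.9985 to 0.9988 in Ctr, 0.9986 in C2 and 0.9977 to 0.9982 in C4 (Pearson r), and C4 arrays with Ctr arrays at 0.9953 to 0.9961. The stem and progenitor markers Sox2 (condition means 12.94 to 13.07) and Olig2 (12.13 to 12.14) were high throughout, and Prom1 stood at the lowest value. Of 8 stem and progenitor markers measured, 3 rose in C4 against Ctr (Egfr by 0.83, adjusted p = 7.72e-05, Pax6 by 0.57, adjusted p = 0.00241, and Fabp7 by 0.34, adjusted p = 6.65e-04) and 1 fell (Vim, by 0.40, adjusted p = 0.0256), and limma called 0 in C2, where 5 had an unadjusted p under 0.05. Among other cell types, 0 of 4 endothelial and 0 of 5 pericyte and fibroblast markers reached the value of 4 used here as the floor of detection. The mean level of 8 astrocyte markers was 8.83 to 8.90 on the Ctr arrays, 8.80 to 8.93 on the C2 arrays and 9.33 to 9.45 on the C4 arrays, and 4 of 8 rose in C4, although Gfap stayed under the floor. The mean level of 6 oligodendrocyte lineage markers was 3.85 to 3.91 in Ctr, 3.41 to 3.59 in C2 and 4.46 to 4.70 in C4, and 3 of 6 rose in C4, with Mbp, Mog and Sox10 under the floor. The mean level of 6 microglia and macrophage markers was 3.43 to 3.48 in Ctr, 3.43 to 3.44 in C2 and 2.98 to 3.03 in C4, with 1 of 6 (Cd68) over the floor and lower in C4. Of 11 markers of dividing cells, 1 (Pcna) rose and 1 (Mcm4) fell in C4. In C2, limma called Aldh1l1 (-0.76, adjusted p = 0.0107), Gpr17 (-1.71, adjusted p = 0.0272) and Mcm4 (-0.61, adjusted p = 0.0286) as lower. Gpr17 was under the floor there. Of all genes with a mean of at least 4, 10.7% passed as higher and 6.78% as lower in C4 against Ctr. In C2 against Ctr, 4.78% passed in either direction. Some of the marker counts lie near these shares. The part that these shifts have in the results below was not tested, and in RNA from whole cultures fewer cells of a type and less RNA per cell cannot be told apart.

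With growth factors every 4 days, 7 of the 10 enzymes fell against daily addition and 1 rose. The mitochondrial folate enzymes Mthfd2 and Shmt2 fell by about a factor of 2, Aldh1l2, Asns and Mthfd1l by 1.76 to 1.87 times, and Psat1 and Psph by less, whereas the cytosolic enzyme Mthfd1 rose on 1 of its probe sets. With growth factors every 2 days, 6 of 10 rose (Psph, Mthfd2, Asns, Shmt2, Phgdh and Aldh1l2) and 0 fell. For Psph, Mthfd2, Asns, Shmt2 and Aldh1l2 this was opposite to C4, whereas Phgdh did not pass in C4. Mthfd1 lay above and Shmt1 below Ctr in both reduced regimens, not always past the test. In C2, only Asns and Psph kept their call under all 17 alternatives tried for single genes. Between the reduced regimens, 8 of 10 were lower in C4 than in C2.

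These counts were read against all genes with a mean of at least 4. Because the 10 enzymes were chosen with earlier results known, an excess over the shares below is not independent evidence. In C4 against Ctr, 17.5% of those genes passed limma's test in either direction, 6.78% as lower and 10.7% as higher. In C2 against Ctr, 4.78% passed, 3.21% as higher. In C4 against C2, 14.8% passed, 6.67% as lower. A stricter threshold was a difference of at least 1 with an adjusted p under 0.01. By it, Shmt2 and Mthfd2 passed in C4 against Ctr (1.34% of genes) and 0 enzymes passed in C2 against Ctr (0.0535%). Shmt2, Mthfd2, Aldh1l2 and Asns passed in C4 against C2 (1.31%). In C4 against Ctr, Shmt2 passed narrowly (-1.0006) and its other probe sets over the floor did not (-0.89 and -0.78). The second probe set of Asns, which does not stand for the gene, was past this threshold there (-1.18, limma adjusted p = 7.16e-06). The median difference over the 10 enzymes was -0.65 in C4 against Ctr, 0.47 in C2 against Ctr and -0.94 in C4 against C2, beside 0.045, 0.021 and 0.017 over 9347 genes. The C4 and C2 comparisons use the same Ctr arrays, so their values are given side by side and the contrast between them is read from C4 against C2. All 10 enzymes were well above the floor, so none entered through 1 condition alone.

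**Figure D1:**
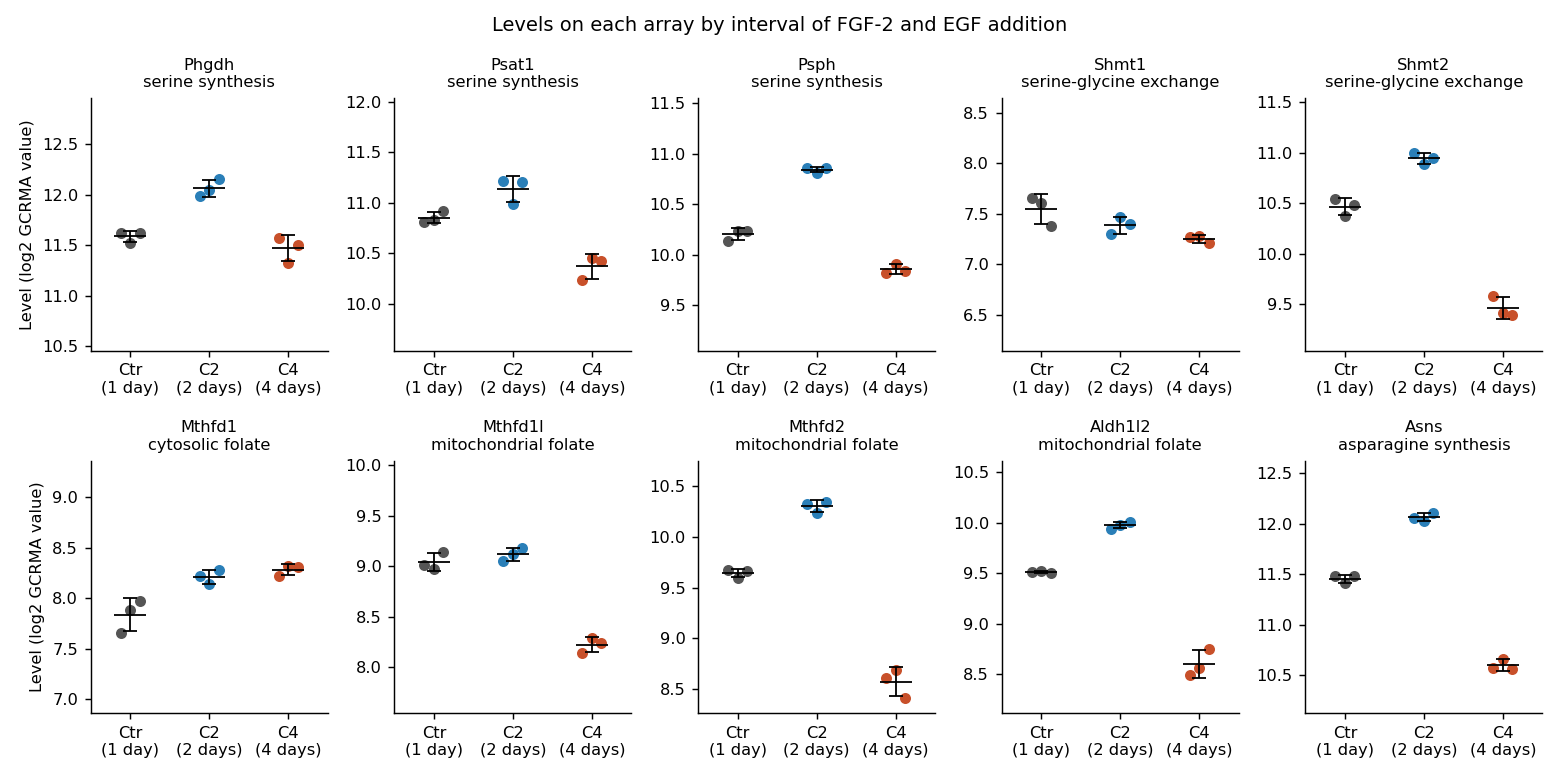
Level (log2 GCRMA value) of each of the 10 enzymes on each array; points are arrays, horizontal bars are condition means and error bars the SD of 3 arrays, and every panel spans 2.5 log2 units around its own centre. For Psat1, Psph, Shmt2, Mthfd2, Aldh1l2 and Asns the 3 C2 arrays lie above the 3 Ctr arrays and the 3 C4 arrays below them.

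Phgdh, which oxidises 3-phosphoglycerate at the entry to serine synthesis, stood at 11.62, 11.52 and 11.62 on the Ctr arrays, at 11.99, 12.05 and 12.15 on the C2 arrays and at 11.57, 11.33 and 11.51 on the C4 arrays. All C2 arrays were thus above all others, while the C4 and Ctr arrays overlapped. The difference of C2 from Ctr was 0.47 ± 0.074 (SE; adjusted p = 0.0365), and that of C4 from Ctr was -0.12, with a 95% interval of -0.30 to 0.057 (adjusted p = 0.618). The call in C2 was lost with the leaving out of any 1 of the 3 Ctr or 3 C2 arrays or of C4 replicate 3 (adjusted p of up to 0.123 over all alternatives).

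The 4 probe sets of Phgdh rose in C2 by 0.43 to 0.50, each past the test (adjusted p 0.00546 to 0.0411). In C4 they lay 0.12 to 0.20 below Ctr, and 1 of them (-0.20, adjusted p = 0.0190) passed, as did the mean over the 4 (-0.14, adjusted p = 0.0342). All 4 are of a kind whose oligonucleotides may also bind other transcripts, so no value of Phgdh free of this can be given. The 2 probe sets shared with predicted genes gave 0.38 and 0.51 in C2 and -0.30 and -0.07 in C4.

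Psat1, the aminotransferase of the next step, had values of 10.81, 10.82 and 10.92 in Ctr, 11.21, 10.99 and 11.20 in C2 and 10.23, 10.46 and 10.43 in C4. The 3 conditions did not overlap, with C2 highest and C4 lowest. Psat1 fell in C4 by 0.48 ± 0.083 (SE; adjusted p = 0.0205, 1.40-fold), a call that was lost without any 1 of the Ctr arrays (adjusted p of up to 0.0698). In C2 it was 0.28 above Ctr (adjusted p = 0.232). A second probe set gave -0.64 in C4 (adjusted p = 0.00337) and 0.081 in C2 (adjusted p = 0.757).

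Psph, the phosphatase that releases serine, stood at 10.13, 10.24 and 10.24 in Ctr, 10.85, 10.81 and 10.86 in C2 and 9.82, 9.91 and 9.84 in C4. The 3 conditions were separate, with C2 highest and C4 lowest. Psph rose in C2 by 0.64 ± 0.038 (SE; adjusted p = 0.00218, 1.56-fold) and fell in C4 by 0.35 ± 0.038 (SE; adjusted p = 0.00356, 1.27-fold). It was 1.98-fold lower in C4 than in C2 (-0.98, adjusted p = 5.84e-05), the largest difference among the 3 enzymes of serine synthesis.

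Of the transcripts for the exchange of serine and glycine, limma called Shmt2 and not Shmt1, which is no test of a difference between them. Shmt2, the mitochondrial hydroxymethyltransferase, had values of 10.54, 10.38 and 10.48 in Ctr, 11.00, 10.89 and 10.95 in C2 and 9.59, 9.42 and 9.39 in C4. The 3 conditions did not overlap, with C2 highest and C4 lowest. Shmt2 fell in C4 by 1.00 ± 0.066 (SE; adjusted p = 5.88e-04, 2.00-fold) and rose in C2 by 0.48 ± 0.066 (SE; adjusted p = 0.0246, 1.39-fold). Of its 4 probe sets, 3 fell in C4, by 0.78 to 1.00. The probe set of highest mean is of the kind that may also bind other transcripts. The probe set without this limit gave -0.89 in C4 (adjusted p = 2.12e-04). The remaining 1 lay near the lowest value of the arrays and says nothing of the decrease.

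Shmt1, the cytosolic hydroxymethyltransferase, stood at 7.66, 7.61 and 7.38 in Ctr, 7.30, 7.47 and 7.40 in C2 and 7.27, 7.28 and 7.21 in C4. The C4 arrays were the lowest, but the difference from Ctr did not pass the test (-0.29, 95% interval -0.48 to -0.10, adjusted p = 0.103). None of its 4 probe sets passed in any comparison at this setting. The mean over those probe sets did pass in C4 (-0.26, adjusted p = 0.0157), as did the difference without Ctr replicate 3 (-0.38, adjusted p = 0.0196), with the filter on dim probe sets (adjusted p = 0.0307) and with arrays shifted to an equal median (adjusted p = 0.0434).

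In the mitochondrial folate pathway, Mthfd2, the dehydrogenase and cyclohydrolase typical of embryonic and proliferating cells, had the largest decrease of the 10 enzymes on the probe sets of highest mean. Its values were 9.67, 9.59 and 9.66 in Ctr, 10.33, 10.24 and 10.35 in C2 and 8.61, 8.69 and 8.41 in C4. The conditions did not overlap, and C2 and C4 lay on opposite sides of Ctr. Mthfd2 fell in C4 by 1.07 ± 0.073 (SE; adjusted p = 6.67e-04, 2.10-fold), rose in C2 by 0.66 ± 0.073 (SE; adjusted p = 0.0126, 1.58-fold) and was 3.33-fold lower in C4 than in C2 (adjusted p = 8.84e-05). A second probe set moved alike, by -1.05 in C4 and by 0.79 in C2. The call in C2 was lost without Ctr replicate 2, C2 replicate 1 or C2 replicate 3.

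Mthfd1l, which releases formate in mitochondria, stood at 9.01, 8.97 and 9.14 in Ctr, 9.05, 9.12 and 9.18 in C2 and 8.14, 8.29 and 8.24 in C4. The Ctr and C2 arrays overlapped and all C4 arrays were lower. Mthfd1l fell in C4 by 0.82 ± 0.061 (SE; adjusted p = 8.75e-04, 1.76-fold). In C2 the difference was 0.07, with a 95% interval of -0.072 to 0.219 (adjusted p = 0.744).

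Aldh1l2, the mitochondrial 10-formyltetrahydrofolate dehydrogenase, which yields NADPH, varied little among the Ctr arrays (9.51, 9.52 and 9.50) and stood at 9.94, 9.98 and 10.00 in C2 and at 8.49, 8.57 and 8.75 in C4. The conditions were again separate, with the widest spread in C4. Aldh1l2 fell in C4 by 0.91 ± 0.063 (SE; adjusted p = 7.28e-04, 1.87-fold) and rose in C2 by 0.46 ± 0.063 (SE; adjusted p = 0.0245, 1.38-fold). The calls of Aldh1l2 and Shmt2 in C2 were each lost without any 1 of the Ctr or C2 arrays (adjusted p of up to 0.120 and 0.107 over all alternatives).

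Mthfd1, the trifunctional cytosolic enzyme, went the other way on the probe set of highest mean. It stood at 7.65, 7.89 and 7.97 in Ctr, 8.22, 8.14 and 8.28 in C2 and 8.22, 8.32 and 8.31 in C4. Both reduced regimens were above Ctr and overlapped with each other. The difference of C4 from Ctr was 0.44 ± 0.084 (SE; adjusted p = 0.0294) and that of C2 from Ctr was 0.37 (adjusted p = 0.110), which passed with the filter on dim probe sets (adjusted p = 0.0247) and with arrays shifted to an equal median (adjusted p = 0.0359). The other probe sets of Mthfd1 gave 0.19 (adjusted p = 0.160) and -0.40 (adjusted p = 0.10) in C4, so the probe sets disagreed in sign, and the mean over all 3 was 0.080 (adjusted p = 0.262). The call was also lost without Ctr replicate 2 and without any 1 of the C2 or C4 arrays.

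**Figure D2:**
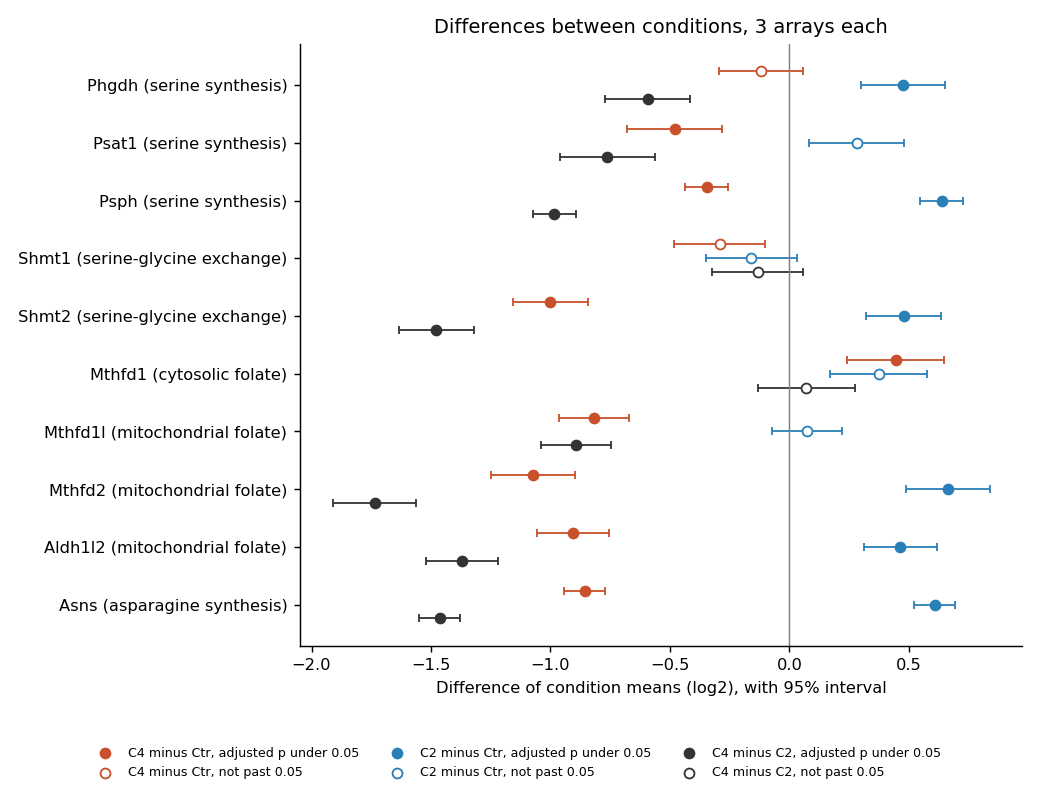
Difference of condition means (log2) with 95% interval for the 10 enzymes, 3 arrays a condition; filled points have an adjusted p under 0.05 and open points do not. In C4 minus Ctr, 7 filled points lie left of 0 and Mthfd1 lies right of it; in C2 minus Ctr, 6 filled points lie right of 0.

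Asns, asparagine synthetase, had the smallest standard error of the set. It stood at 11.48, 11.41 and 11.48 in Ctr, 12.06, 12.03 and 12.10 in C2 and 10.57, 10.66 and 10.56 in C4. The SD within a condition was 0.039 to 0.057, and no array of a condition came near those of another. Asns fell in C4 by 0.86 ± 0.036 (SE; adjusted p = 1.43e-04, 1.81-fold), rose in C2 by 0.61 ± 0.036 (SE; adjusted p = 0.00218, 1.52-fold) and was 2.76-fold lower in C4 than in C2 (adjusted p = 1.47e-05). Its second probe set fell by 1.18 in C4 and rose by 0.43 in C2, each past the test. The genes whose levels followed those of Asns most closely over the 9 arrays, among 4025 genes compared, were Eif4ebp1 (Pearson r = 0.997), Mthfd2 (0.997), Mars1 (0.997) and Slc3a2 (0.996). These correlations describe 9 arrays that fall into 3 conditions.

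The promoter of Asns is shown because it is the only 1 of the 9 enzyme genes with a promoter in the RefSeq table (GRCm38.p6; Aldh1l2 has no entry) whose window, 250 bases before to 50 bases after the start, held the letters TGATGNAA or, on the other strand, TTNCATCA. These letters are the core of the site at which C/EBP and ATF proteins bind together, and they are in capitals. Among all genes of the table, 4.51% held them. Among the 9 enzyme genes, 11.1% did. Among 22 genes of the list of ATF4 and its targets used below, 40.9% (9 genes) did. That list was made of genes tied to ATF4, so a high share may come from the choice and is not independent evidence. Those 22 include Atf4 itself and the kinases Eif2ak3 and Eif2ak4, which lack the letters. They also include Pycr1, which holds the letters but is not among the measured genes described below. The 120 bases before the start of Asns on the minus strand, chr6:7693210-7693329, hold them 23 to 16 bases before the start, and windows of 30 bases of 3 of the ATF4 target genes are set beside it: Nupr1 (chr7:126625562-126625591, minus strand), Chac1 (chr2:119351038-119351067, plus strand) and Atf3 (chr1:191183425-191183454, minus strand), each with the letters on the other strand.
Asns: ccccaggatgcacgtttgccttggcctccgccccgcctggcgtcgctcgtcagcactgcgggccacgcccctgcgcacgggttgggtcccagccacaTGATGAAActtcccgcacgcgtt
Nupr1: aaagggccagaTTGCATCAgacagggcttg
Chac1: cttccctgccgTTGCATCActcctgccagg
Atf3: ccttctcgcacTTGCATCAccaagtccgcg
A match is a description of these letters and not of binding, and the window of a gene without a match says nothing of the factors that act on it. The 3 genes shown beside Asns are examples, and all 3 rose in C2. Herpud1 and Vldlr also hold the letters and did not pass in C2 (0.072 and -0.091).

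The isozymes of a step were then set against each other within each array, as the change of the mitochondrial form minus the change of the cytosolic form from their own Ctr means. For Shmt2 against Shmt1 this difference was -0.037, -0.15 and 0.19 on the Ctr arrays, 0.78, 0.50 and 0.63 on the C2 arrays and -0.60, -0.78 and -0.74 on the C4 arrays. For Mthfd1l against Mthfd1 it was 0.15, -0.12 and -0.032 in Ctr, -0.38, -0.22 and -0.31 in C2 and -1.28, -1.24 and -1.27 in C4. In C4 the change from Ctr was thus lower for both mitochondrial forms than for their cytosolic counterparts on every array. These are changes and not levels: on the C4 arrays Shmt2 averaged 9.47 and Shmt1 7.26, and Mthfd1l 8.22 and Mthfd1 8.28.

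The widest contrast was between the 10-formyltetrahydrofolate dehydrogenases, because the cytosolic Aldh1l1, also an astrocyte marker, rose in C4 (1.11, adjusted p = 7.83e-04) and fell in C2 (-0.76, adjusted p = 0.0107). Aldh1l2 against Aldh1l1 gave a mean of -2.02 in C4 and 1.23 in C2. Mthfd2 against its other mitochondrial form Mthfd2l, which is expressed in many adult tissues, gave -1.02 in C4 and 0.68 in C2, and against Mthfd1 it gave -1.52 in C4 and 0.29 in C2. No array of C4 or of C2 overlapped with those of Ctr in any of these pairs. Over 6 pairs of genes and 3 comparisons (18 tests), each two-sided exact permutation p was 0.1, the smallest that 3 arrays against 3 allow, so none can pass 0.05 in this design. The second probe set of Aldh1l1 was at the lowest value of the arrays and gives no second reading, and the values for Mthfd1 rest on its probe set of highest mean.

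**Figure D3:**
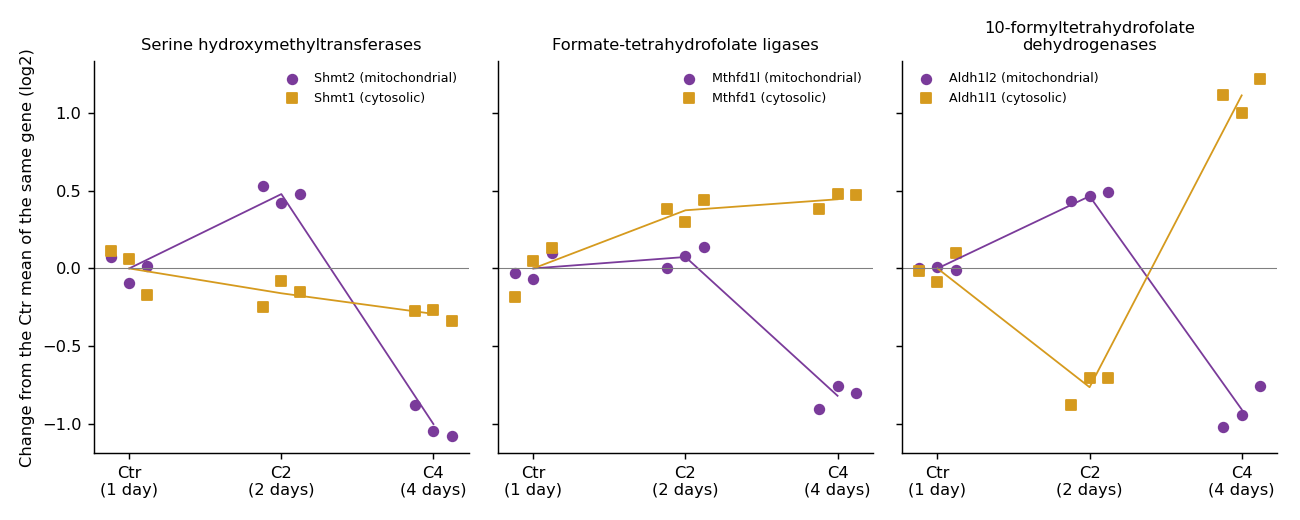
Change of each gene from its own Ctr mean (log2) on each array for 3 pairs of mitochondrial (circles) and cytosolic (squares) isozymes; lines join condition means. On the C4 arrays the mitochondrial form has the lower change of each pair. On the C2 arrays the change is the higher for Shmt2 and Aldh1l2 and the lower for Mthfd1l.

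Most genes of the adjoining folate, serine, aspartate and purine pathways did not pass the test, nor did most genes of the array. Of all genes with a mean of at least 4, 10.7% passed as higher and 6.78% as lower in C4 against Ctr. In C2 against Ctr, 4.78% passed in either direction. The counts of the lists below are to be read beside those shares, and some lie near them. Unlike the shares, the lists also hold genes under the floor in every condition, where little change can be seen. These were 5 of 14 in the folate list, 2 of 9 around asparagine and 1 of 25 in the ATF4 list. Of 14 measured folate and one-carbon enzymes and carriers, 1 rose (Aldh1l1) and 1 fell in C4: Slc19a1, the reduced folate carrier at the cell surface, by 0.50 (adjusted p = 0.0110), with its other probe sets at -0.12 (adjusted p = 0.286) and at the lowest value. The call of Slc19a1 was lost in a fit of C4 and Ctr alone and when replicate number was fitted as a block. The mitochondrial folate carrier Slc25a32 was at 0.19 in C4 (adjusted p = 0.583) and 0.32 in C2 (adjusted p = 0.343), and Ggh, the folate hydrolase, at 0.23 in C4 (adjusted p = 0.0795). The median over the list, with the 5 genes under the floor included, was -0.0051 in C4 and 0.012 in C2.

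Of 10 measured genes of serine and glycine use, 1 rose in C4, the mitochondrial serine carrier Sfxn1 (0.54, adjusted p = 0.0172; second probe set 0.55, adjusted p = 0.00354; the first lost its call without Ctr replicate 2, C4 replicate 2 or C4 replicate 3 and in a fit of C4 and Ctr alone), and limma called 0 in C2, where 2 had an unadjusted p under 0.05. The glycine cleavage components Gcsh (0.11 in C4, 0.23 in C2) and Dld (-0.19 and 0.05) did not pass. Of 6 purine synthesis genes, limma called 0 in C4 and 0 in C2, where 2 and 1 had an unadjusted p under 0.05. Gart, which uses the formyl units of folate, was at 0.39 in C4 (adjusted p = 0.174) and 0.41 in C2 (adjusted p = 0.252), and its other probe sets over the floor gave 0.11 and -0.11 in C4 and 0.26 and 0.13 in C2. Atic, which uses them at the end of the same route, was lower in C4 than in C2 by 0.39 (adjusted p = 0.0384), a call lost without any 1 array other than C2 replicate 2, and its second probe set gave -0.19 (adjusted p = 0.517).

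On the glycolytic side, 3 of the 4 measured enzymes around 3-phosphoglycerate fell in C4 and 1 rose. Pgam1, phosphoglycerate mutase, fell by 0.41 in C4 (adjusted p = 0.00113) and by 0.33 in C2 (adjusted p = 0.00971), and Pgk1, phosphoglycerate kinase, by 0.13 in C4 (adjusted p = 0.0301) and by 0.18 in C2 (adjusted p = 0.0245), although its other probe sets did not pass. The calls of Pgk1 were lost without any 1 of the Ctr arrays, C2 replicate 3 or C4 replicate 3, and in C4 also without C4 replicate 1 or 2. The count of 3 lower in C4 was 1 without any 1 Ctr array, C4 replicate 1 or C4 replicate 2. Bpgm, bisphosphoglycerate mutase, rose in C4 by 0.64 (adjusted p = 0.00433) on all 3 of its probe sets. In C2, 2 of the 4 fell, so there these neighbours were lower while Phgdh, which uses the same intermediate, was higher.

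Around asparagine, 2 genes moved in C4. Nars, the tRNA synthetase that consumes asparagine, changed as Asns did: it stood at 11.14, 11.02 and 11.11 in Ctr, 11.67, 11.64 and 11.66 in C2 and 10.50, 10.46 and 10.49 in C4, and fell by 0.61 in C4 (adjusted p = 2.12e-04) and rose by 0.57 in C2 (adjusted p = 0.00156). Its mitochondrial counterpart Nars2 did not keep step, with a difference between the 2 changes of -0.61 in C4 and 0.52 in C2. Asrgl1, an asparaginase that breaks asparagine down, rose by 1.21 in C4 (adjusted p = 1.71e-04), with values of 10.29, 10.27 and 10.41 in C4 and 9.08, 9.10 and 9.14 in Ctr, and its other probe sets rose by 1.10 to 1.38. In C4, the transcript of Asns was thus lower and that of Asrgl1 higher, while in C2 Asrgl1 did not pass (-0.04). Asparagine itself and the activity of these enzymes were not measured. Got1, which makes cytosolic aspartate, rose in C2 by 0.27 (adjusted p = 0.0253), a call lost without any 1 array other than Ctr replicate 1 and C4 replicate 2. Of the 9 measured genes of this list, 1 rose and 1 fell in C4, and 2 rose in C2.

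The genes of ATF4 and its targets moved in larger numbers, with medians of the same sign as those of the 10 enzymes. This list, which also holds the kinases Eif2ak3 and Eif2ak4, was chosen with earlier results of these arrays known. Its direction is thus not independent evidence. Of 25 measured genes, 14 fell and 0 rose in C4, with a median of -0.58. Of all genes with a mean of at least 4, 6.78% fell in C4 against Ctr. In C2, 12 rose (3.21% of all those genes did) and 1 (Ddit4) fell, with a median of 0.50. In C4 against C2, 19 were lower (6.67% of all those genes were), with a median of -0.82. The count of 12 in C2 was 7 with the replicate number as a block and 4 with a robust variance prior.

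Slc3a2, the heavy chain of several amino acid exchangers, stood at 11.09, 11.03 and 11.03 in Ctr, 11.64, 11.65 and 11.69 in C2 and 10.36, 10.41 and 10.40 in C4. Nupr1, a stress-induced chromatin protein, fell by 1.11 in C4 (adjusted p = 2.09e-04) and rose by 1.01 in C2 (adjusted p = 0.00156). Both followed the pattern of Asns. Ddit3, the pro-apoptotic factor CHOP, rose by 0.86 in C2 (adjusted p = 0.00156) and fell by 0.30 in C4 (adjusted p = 0.0112), but its dim second probe set gave 0.15 in C4 and 0.036 in C2, and the call in C4 was lost in the mean over both. Ddit4, an inhibitor of mTORC1 that other stresses also induce, fell in both, by 0.40 in C4 (adjusted p = 3.63e-04) and by 0.21 in C2 (adjusted p = 0.0126, lost without Ctr replicate 2 or C2 replicate 2).

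The transcript of Atf4 itself rose in C2 by 0.46 (adjusted p = 0.0243) and lay 0.22 below Ctr in C4 (adjusted p = 0.117). Among 4025 genes it came the third in likeness to Phgdh over the 9 arrays (Pearson r = 0.969), after Dgkk (0.976) and Wars (0.974) and ahead of Slc4a10 (0.959). The other enzymes among those genes came at ranks from 32 (Psph) to 1397 (Mthfd1), with Asns at 103 (0.865). These correlations, too, describe 9 arrays that fall into 3 conditions.

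**Figure D4:**
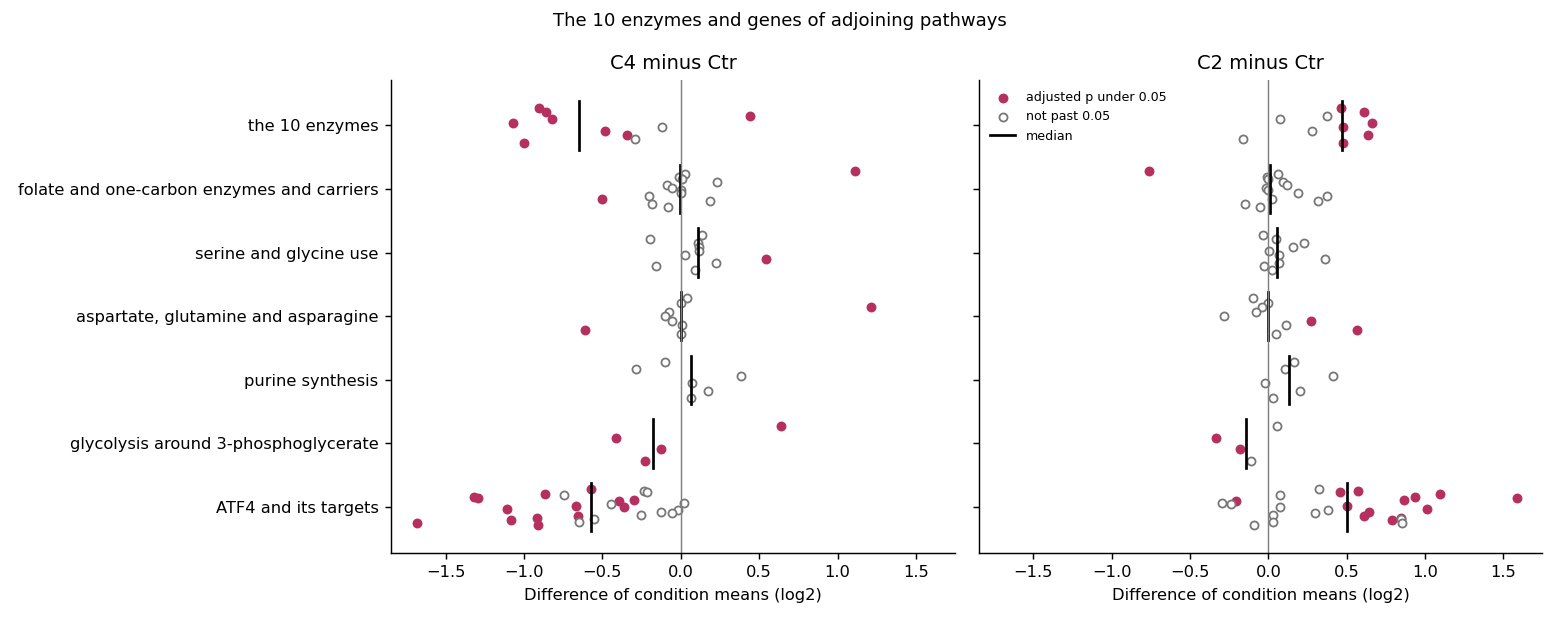
Difference of condition means (log2) for the 10 enzymes and for each measured gene of 6 pathway lists, in C4 minus Ctr (left) and C2 minus Ctr (right); each point is a gene, filled points have an adjusted p under 0.05, and vertical bars are medians. The 10 enzymes (medians -0.65 and 0.47) and ATF4 and its targets (medians -0.58 and 0.50) have medians left of 0 in C4 and right of it in C2. Most genes of the folate, serine, aspartate and purine lists lie near 0. Some genes of the folate and aspartate lists are under the floor, where little change can be seen.

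How far these calls hold differed between the comparisons. In C4 against Ctr, Psph, Shmt2, Mthfd1l, Mthfd2, Aldh1l2 and Asns passed under all 17 alternatives tried for single genes, and in C4 against C2 all 8 enzymes called passed under every one of these that gave them a value. In C2 against Ctr, Asns (adjusted p of up to 0.0339) and Psph (up to 0.0289) were the enzymes that did so. There, 2 of the enzymes passed without Ctr replicate 2, C2 replicate 1 or C2 replicate 3, and 3 without Ctr replicate 1, Ctr replicate 3 or C2 replicate 2, against 6 with all arrays. Without overlap between arrays, 8 of the 10 enzymes lay above Ctr in C2 (19.9% of all genes did), and 8 lay below and 1 above Ctr in C4 (16.2% and 25.8%). In C4 against C2, 9 lay below (18%).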

How the data were processed

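Total RNA of aOBSC neurospheres was labelled and hybridised to Affymetrix Mouse Genome arrays. Normalisation by the authors was with GCRMA, a method that subtracts a sequence-dependent background, equalises the distributions of the arrays and reports log2 values per probe set, used here as deposited. GCRMA compresses differences of dim transcripts at a common low value, and 12350 probe sets were constant. The GCRMA version and its annotation are not given in the sources used here. An array has no read depth, so the number of arrays limits the precision.

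Of 45101 probe sets, 64 controls were left out and 45037 were tested with limma 3.58.1 in R 4.3.3 (1 mean per condition, 9 arrays, trended variance prior, residual degrees of freedom 6, prior degrees of freedom 0.574), with Benjamini-Hochberg adjustment over all of them and a call at an adjusted p under 0.05. Symbols came from the platform annotation (34945 probe sets with 1 symbol, 932 with several, 9160 with none). Where a gene had several probe sets, the 1 with the highest mean stood for it. Isozymes were compared with two-sided exact permutation tests (scipy 1.17.1). The procedure was tested on simulated data. Promoters came from RefSeq (GRCm38.p6).

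The 10 enzymes and the gene lists were chosen with earlier results of these data known. Named genes are the 10 enzymes and, of each pathway list, up to 3 genes with the smallest p in C4 against Ctr and up to 2 in C2 against Ctr. Atf4, Nars2, Mthfd2l, Herpud1, Vldlr and the markers named were chosen after their values were seen. Alternatives were a fit of 2 conditions, a replicate block, a constant or robust variance prior, a filter on dim probe sets, the mean over a gene's probe sets, probe sets of 1 target, arrays shifted to an equal median, a difference of at least 1 with an adjusted p under 0.01 (the rule by which transcripts were chosen for RT-qPCR; the study's expression comparison used the difference alone) and the leaving out of each array.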

Additional observations from a re-analysis of the deposited data

How the results depend on the processing

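No enzyme that passed in the main setting changed direction under any alternative. Deviations from the condition means correlated at -0.043 to 0.126 between arrays of the same replicate number (18380 probe sets). Between arrays of different numbers the range was -0.122 to 0.092. Whether arrays of the same number shared a culture cannot be told from these values. With the replicate number as a block, 3 enzymes passed in C2 against Ctr and 237 probe sets of the whole array; in C4 against Ctr Psat1 was lost (7 enzymes), and in C4 against C2 all 8 were called. In C2 against Ctr, a robust variance prior left 2 enzymes and 45 probe sets (3129 at an unadjusted p under 0.05). The stricter threshold (a difference of at least 1 and an adjusted p under 0.01) left 2 enzymes in C4 against Ctr, 0 in C2 against Ctr (where 8 had an unadjusted p under 0.05) and 4 in C4 against C2. Leaving out 1 array gave 6 to 8, 2 to 6 and 8 to 8 enzymes in C4 against Ctr, C2 against Ctr and C4 against C2.

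Over the whole array, 2833 probe sets were called in C4 against Ctr, and 1618 in a fit of 2 conditions, 1386 with the robust prior, 4697 with the filter on dim probe sets, 230 by the stricter threshold and 1818 to 2585 without 1 array. In C2 against Ctr, 767 became 371, 1825 (filter), 11 (stricter threshold) and 323 to 584. In C4 against C2, 2363 became 1404, 1178, 3908, 224 and 1485 to 2091. With arrays shifted to an equal median (by -0.054 to 0.055), 1790 rose and 1987 fell in C4 against Ctr, beside 1702 and 1131, and 602 and 548 in C2, beside 507 and 260; Shmt1 then also passed in C4 and Mthfd1 in C2. The cause of these shifts was not tested. Without probe sets that may bind other transcripts, Phgdh could not be given, and 8 of 9 enzymes passed in C4 and 5 of 9 in C2.

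Among the named genes, the fit of 2 conditions lost Phgdh, Shmt2, Got1, Pgk1, Pgam1 and Ddit4 in C2 against Ctr and Mthfd1, Slc19a1, Sfxn1 and Ddit3 in C4 against Ctr. The robust prior lost Phgdh, Shmt2, Mthfd2, Aldh1l2, Aldh1l1, Got1, Pgk1, Pgam1 and Ddit4 in C2 and Mthfd1, Pgk1 and Ddit3 in C4. The filter on dim probe sets gained Shmt1, Ggh, Gart and Atic in C4 and Mthfd1, Gcsh and Sfxn1 in C2.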
